A study of Mus musculus with 16 samples.

Results

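Surfactant and alveolar type 2 genes were followed in RNA-seq libraries of mouse lung. They were 10 genes chosen by name (Sftpc, Sftpa1, Sftpb, Sftpd, Abca3, Lamp3, Slc34a2, Napsa, Lpcat1 and Etv5) out of 53647 genes in the deposited table, by a rule that uses no measured value, though earlier results of these data were known. The study used bleomycin, a drug that injures the lung and models pulmonary fibrosis, and its title names ATP12A, a subunit of the non-gastric proton pump, as a target in that disease. The 4 groups were lungs given bleomycin and the adenovirus Ad-ATP12A, lungs given bleomycin and the adenovirus Ad-GFP, lungs given bleomycin alone, and control lungs, with 4 libraries each, 2 from each of 2 batches. Bleomycin is thus shared by the 12 libraries of the first 3 groups, and both adenovirus groups also carry a vector. The labels give no strain, age, sex, dose, day of collection, vector promoter or species of the ATP12A transgene, and they do not say what differed between the batches. They also do not say that replicates were separate animals, so p-values measure the spread between libraries. Libraries are named by batch and replicate (b1r2 is replicate 2 of batch 1), and the 4 values of a group follow the order b1r1, b1r2, b2r1, b2r2.

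Alveolar type 2 cells line the alveoli, make pulmonary surfactant and act as progenitors of the flat alveolar type 1 cells. Surfactant is a mixture of phospholipid and proteins that lowers surface tension at the air surface; it is assembled in lamellar bodies, released, and then taken back by type 2 cells or cleared by alveolar macrophages. In bleomycin injury some type 2 cells are known to pass through a transitional, keratin-rich state. Bulk tissue cannot tell fewer type 2 cells from less of these RNAs per cell, which holds for each result that follows.

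The promoters of 4 members are shown because each holds a motif of a factor known to act on surfactant genes, NKX2-1 or a FOXA protein. RNA levels of these 4 moved together across the libraries, but so did those of Lpcat1 and Slc34a2, whose windows hold neither motif. Each line gives the 250 bases before the RefSeq transcript start (GRCm38.p6), 5′ to 3′ on the gene's strand. Capitals mark CTCAAG, the core of an NKX2-1 site, or TGTTTAC, a FOXA-type site, searched on both strands. The windows are chr6:72304360-72304609 on the plus strand for Sftpb, chr14:41131538-41131787 on the plus strand for Sftpa1, chr16:19706366-19706615 on the minus strand for Lamp3, and chr16:22439571-22439820 on the minus strand for the upstream one of the 2 listed Etv5 starts.
Sftpb: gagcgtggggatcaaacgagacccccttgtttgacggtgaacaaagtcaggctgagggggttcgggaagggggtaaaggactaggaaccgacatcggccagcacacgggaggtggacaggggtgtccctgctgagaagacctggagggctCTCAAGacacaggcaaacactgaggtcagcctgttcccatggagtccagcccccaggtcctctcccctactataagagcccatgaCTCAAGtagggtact
Sftpa1: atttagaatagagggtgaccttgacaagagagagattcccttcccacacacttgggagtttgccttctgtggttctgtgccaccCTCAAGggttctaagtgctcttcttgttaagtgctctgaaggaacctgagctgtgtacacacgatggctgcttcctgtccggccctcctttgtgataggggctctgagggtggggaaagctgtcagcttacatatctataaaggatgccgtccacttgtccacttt
Lamp3: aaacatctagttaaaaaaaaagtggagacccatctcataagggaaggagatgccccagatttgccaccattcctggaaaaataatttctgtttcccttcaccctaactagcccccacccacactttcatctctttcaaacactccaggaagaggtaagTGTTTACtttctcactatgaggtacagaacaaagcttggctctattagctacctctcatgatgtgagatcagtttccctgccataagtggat
Etv5: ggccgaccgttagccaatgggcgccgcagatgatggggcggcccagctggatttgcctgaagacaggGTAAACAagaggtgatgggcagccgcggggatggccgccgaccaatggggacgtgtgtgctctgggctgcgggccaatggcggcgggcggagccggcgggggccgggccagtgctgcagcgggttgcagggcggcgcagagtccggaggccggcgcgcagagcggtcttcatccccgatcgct
The CTCAAG copies of the Sftpb promoter began at positions -100 and -15 from the start, and that of Sftpa1 at -166. TGTTTAC began at -92 in Lamp3, and in Etv5 its reverse complement began at -183. Among the 8 windows listed for the members (Sftpb, Sftpa1, Lamp3, Slc34a2, Lpcat1, Abca3 and the 2 of Etv5), 2 held CTCAAG, against 13.3% of all 32851 promoter windows of that length, and 2 held TGTTTAC, against 3.17%. A C/EBP-type motif, TTNNNCAA, was in 2 of the 8 and in 33.3% of all windows, and an ETS-type motif, CCGGAAG, was in 0 of the 8 and in 6.91% of all windows. These matches describe letters in a window and are no evidence of binding. No window was listed for Sftpc, Sftpd or Napsa.

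Values are in TPM, abundance per transcript length scaled to the total of the library; TPM holds no counts of reads, and how deeply a library was sequenced is unknown. Libraries had between 15537 and 16336 genes at 1 TPM or more, and no pair of libraries was identical. Atp12a, the gene named by the vector, was at 5.13 and 2.96 TPM in the batch 1 Ad-ATP12A lungs and at 29.0 and 25.7 TPM in the batch 2 ones, against 0.20 TPM or less in the other 12 libraries. Some libraries stood apart in ways the groups do not give. The club cell secretoglobin Scgb1a1 was at 295 TPM in Ad-GFP b1r1, 128 TPM in bleomycin b2r2 and 441 TPM in control b2r1, against 24870 TPM or more in the other 13. Xist, a female-specific RNA in mouse, was at 74.4 TPM or more in 6 libraries (Ad-ATP12A b1r1, b1r2 and b2r2, Ad-GFP b1r1, bleomycin b2r1 and control b1r1) and at 0.49 TPM or less in the other 10. Some of these libraries are named again with the results. In each group a library with Xist was the highest for members: Ad-ATP12A b1r2 for 10, Ad-GFP b1r1 for 5, bleomycin b2r1 for 10 and control b1r1 for 9. Not all went that way: Ad-GFP b2r1, without Xist, was highest for 5, and Ad-ATP12A b2r2, with Xist, was lowest for 6. Whether the members' levels follow Xist was not tested.

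The label fitted the tissue: all 10 members, and all 16 further type 2 markers on a separate list, passed the expression filter of at least 1 TPM in at least 4 libraries. The members together made up between 0.790% and 3.68% of all TPM in Ad-ATP12A lungs, 0.831% and 4.004% in Ad-GFP lungs, 1.31% and 3.31% in bleomycin lungs, and 2.60% and 3.72% in control lungs. The highest shares were similar in the 4 groups, and the groups given bleomycin reached lower at the bottom.

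The hydrophobic surfactant proteins SP-B and SP-C, encoded by Sftpb and Sftpc, spread the lipid film. Sftpc (ENSMUSG00000022097) had 15371, 27605, 3965 and 7987 TPM in Ad-ATP12A lungs, 29397, 15456, 22804.5 and 4644 TPM in Ad-GFP lungs, 8925, 12924, 23408.5 and 11359.6 TPM in bleomycin lungs, and 17929, 16036, 27449 and 20672 TPM in control lungs. It spanned a wider range in each of the groups given bleomycin than in controls, and 8 of the 12 bleomycin-exposed libraries lay below the lowest control while 2 lay above the highest. Sftpb (ENSMUSG00000056370) had 2583, 2979, 1691 and 1467 TPM in Ad-ATP12A lungs, 3934, 2384, 3180.2 and 1498 TPM in Ad-GFP lungs, 2109.9, 2377, 3082 and 2288 TPM in bleomycin lungs, and 4662, 3460.2, 4099.9 and 2169 TPM in control lungs. Control b2r2 was the low control for Sftpb, and the control range overlapped that of each other group, with 4 of 12 bleomycin-exposed libraries below it.

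The collectins SP-A and SP-D, from Sftpa1 and Sftpd, bind microbes and debris in the airspace. Sftpa1 (ENSMUSG00000021789) had 1648, 3240.4, 917 and 997 TPM in Ad-ATP12A lungs, 3439, 1024, 3415 and 908 TPM in Ad-GFP lungs, 681, 1042, 3189 and 1263 TPM in bleomycin lungs, and 4884, 3744, 3128 and 2177 TPM in control lungs. As for Sftpc, 8 of 12 bleomycin-exposed libraries were below the control range, and none was above it. Sftpd (ENSMUSG00000021795) had 1158, 1496, 517 and 578 TPM in Ad-ATP12A lungs, 1683, 889, 1169 and 570.3 TPM in Ad-GFP lungs, 680.0, 805, 1511 and 836 TPM in bleomycin lungs, and 1269.9, 891, 806 and 557 TPM in control lungs. Sftpd was the member whose control mean was the lowest of the 4 groups: 1 of 12 bleomycin-exposed libraries was below the control range and 3 were above it.

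Lamellar bodies are filled by the lipid transporter ABCA3, carry LAMP3 in their membrane, and hold phosphatidylcholine remodelled by the acyltransferase LPCAT1. Abca3 (ENSMUSG00000024130) had 86.2, 90.5, 69.7 and 68.7 TPM in Ad-ATP12A lungs, 101, 66.2, 141 and 66.8 TPM in Ad-GFP lungs, 64.8, 71.8, 137 and 105 TPM in bleomycin lungs, and 157, 132, 118 and 70.3 TPM in control lungs. Lamp3 (ENSMUSG00000041247) had 198, 231, 76.0 and 66.0 TPM in Ad-ATP12A lungs, 250.3, 144, 287 and 65.1 TPM in Ad-GFP lungs, 83.1, 128, 311 and 184 TPM in bleomycin lungs, and 404, 329, 247 and 191 TPM in control lungs. Lpcat1 (ENSMUSG00000021608) had 163, 194, 107 and 106 TPM in Ad-ATP12A lungs, 199, 140.0, 217 and 102 TPM in Ad-GFP lungs, 113, 135, 238 and 162 TPM in bleomycin lungs, and 255, 220.0, 211 and 138 TPM in control lungs. All 3 shared the same high and low libraries: Ad-ATP12A b1r2, Ad-GFP b2r1, bleomycin b2r1 and control b1r1 were the highest of their groups, and control b2r2 was the lowest control. Below the control range lay 7 of 12 bleomycin-exposed libraries for Lamp3 and 5 of 12 for Abca3 and for Lpcat1.

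SLC34A2 takes up phosphate freed from used surfactant, NAPSA is a protease that trims the SP-B precursor, and ETV5 is an ETS transcription factor that acts downstream of growth factor signals and upholds type 2 identity. Slc34a2 (ENSMUSG00000029188) had 381, 515, 271 and 243 TPM in Ad-ATP12A lungs, 561, 308, 717 and 226 TPM in Ad-GFP lungs, 213, 279.6, 697 and 422 TPM in bleomycin lungs, and 987, 754, 689.9 and 407 TPM in control lungs. Etv5 (ENSMUSG00000013089) had 40.7, 50.6, 27.8 and 28.6 TPM in Ad-ATP12A lungs, 52.6, 30.3, 72.1 and 23.8 TPM in Ad-GFP lungs, 24.4, 28.4, 69.5 and 43.4 TPM in bleomycin lungs, and 87.6, 79.9, 86.0 and 45.4 TPM in control lungs. For Etv5, 8 of 12 bleomycin-exposed libraries were below the control range, and for Slc34a2 7 of 12 were. Napsa (ENSMUSG00000002204) had 331, 413, 262 and 231 TPM in Ad-ATP12A lungs, 421, 356, 394 and 208 TPM in Ad-GFP lungs, 251, 298, 418 and 279 TPM in bleomycin lungs, and 406, 353, 368 and 206 TPM in control lungs. For Napsa none of the 12 was below the control range and 3 were above it. All these counts against the control range are given without a share over all genes, so they only describe the libraries.

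**Figure D1:**
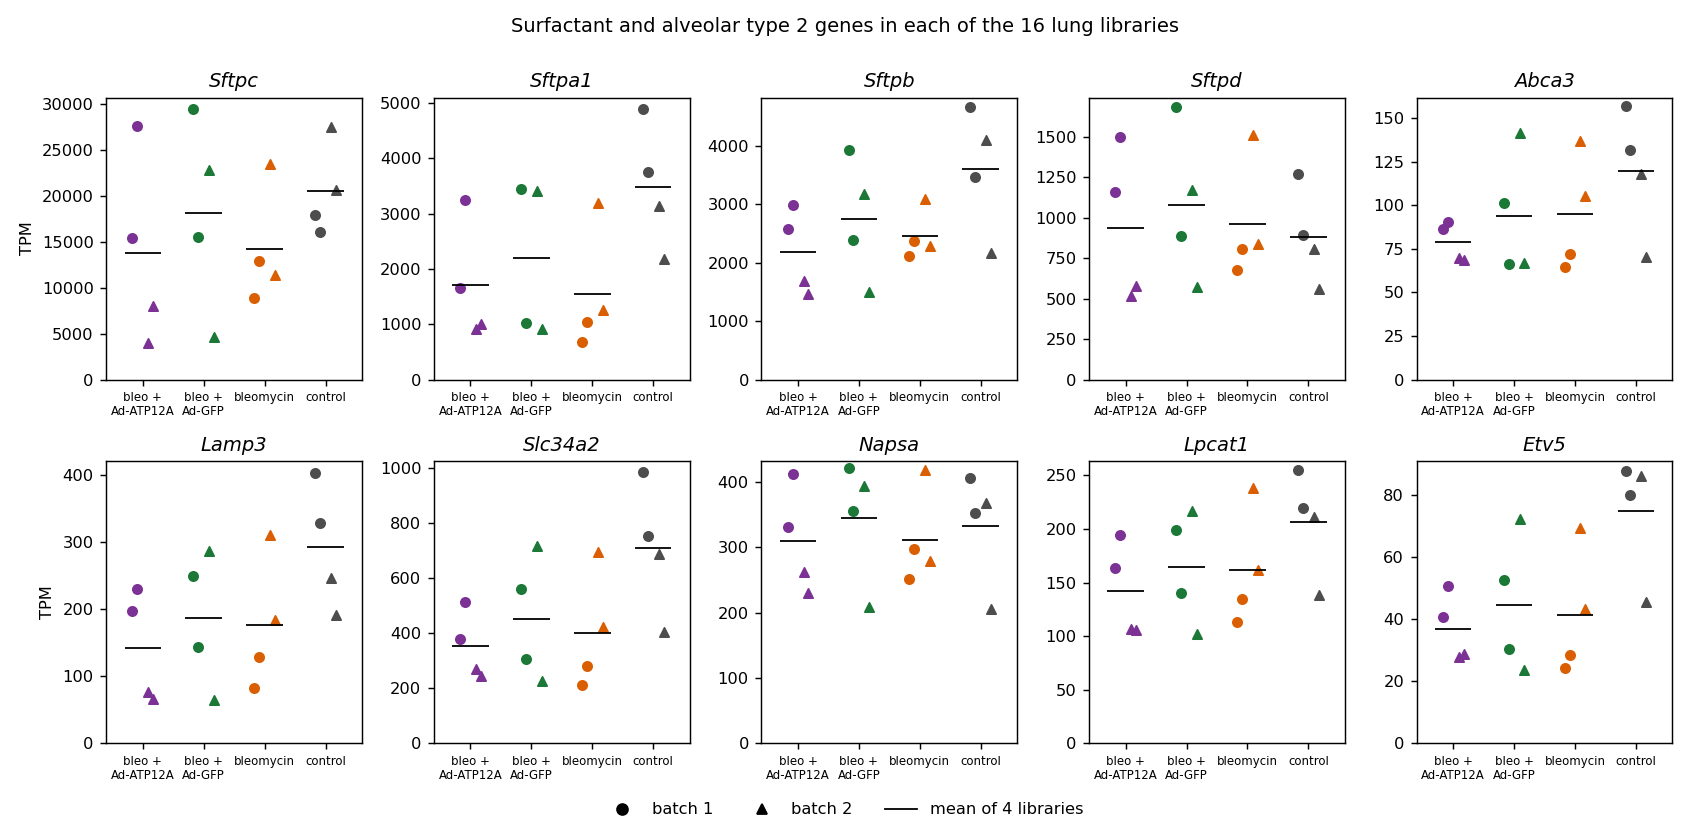
Each panel plots 1 gene in TPM (vertical axis, linear from 0) for the 4 groups; each point is 1 library, circles are batch 1, triangles are batch 2, and the line is the mean of 4 libraries. In the bleomycin group b2r1 is the highest point in all 10 panels, and control b2r2 is the lowest control in 9 of 10.

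Controls had the highest mean for 8 members, and Ad-GFP lungs had it for Sftpd and Napsa. Ad-ATP12A lungs had the lowest mean for 8 members, bleomycin lungs for Sftpa1, and control lungs for Sftpd. For each of the 10 members the ranges of all pairs of groups compared overlapped, so no neighbours in these orders were separated by all their libraries.

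Bleomycin lungs were set against control lungs to ask what bleomycin alone did. Of the 10 members, 9 averaged lower after bleomycin, with a median log2 fold change of -0.55 against 0.05 for all genes tested, but none passed the test. The two-sided limma test on log2(TPM + 1) included batch, and its p-values were adjusted by Benjamini-Hochberg over 17003 genes and read at 0.05. It called 18.8% of all genes and 0 of the 10 members. An unadjusted p under 0.05 was found for 5702 of the 17003 genes and for 2 members. Sftpa1 averaged 1544 ± 1123 TPM in bleomycin lungs and 3483 ± 1135 TPM in control lungs (SD, n = 4 each), a log2 fold change of -1.36 (95% confidence interval -2.57 to -0.15, limma adjusted p = 0.106). Etv5 averaged 41.4 ± 20.4 TPM in bleomycin lungs and 74.7 ± 19.8 TPM in control lungs, a log2 fold change of -0.91 (interval -1.72 to -0.10, limma adjusted p = 0.109). These 2 had the smallest p of the members, and their unadjusted intervals stop short of 0.

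Slc34a2, Lamp3 and Sftpc followed, with log2 fold changes of -0.89 (SE 0.425), -0.84 (SE 0.513) and -0.60 (SE 0.589). Sftpb, Lpcat1 and Abca3 were at -0.50, -0.37 and -0.34. Napsa was at -0.08 and Sftpd at 0.11, and Sftpd turned to -0.09 after quantile normalization. The interval of Sftpd ran from -0.67 to 0.89, so a difference of either sign remains possible. The 4 smallest differences therefore belonged to Sftpd, Napsa, Abca3 and Lpcat1, and the largest to a collectin and to the transcription factor. Across the 4 against 4 libraries 0 of 10 members were lower without overlap, against 6.92% of all genes.

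Whether any member passed depended on 1 library and on the model. Bleomycin b2r1 had the highest value of its group for all 10 members, and without it 3 members passed, which were Sftpa1 (log2 fold change -1.87, limma adjusted p = 0.0222), Etv5 (-1.22, 0.0309) and Slc34a2 (-1.25, 0.0434). Weighting libraries by their fit to the rest passed 7 members (Sftpa1, Sftpb, Abca3, Lamp3, Slc34a2, Lpcat1 and Etv5), and a term for Xist passed Sftpa1 (-1.36, limma adjusted p = 0.0425). All genes passing moved too, from 3201 in the main fit to between 1484 and 3701 with 1 library left out. Over the other settings all genes passing ran from 1468 to 7613, so the member counts cannot be read apart from that shift. Bleomycin b2r1 was the bleomycin library with Xist, at 144 TPM. It also had the lowest sum of the fibroblast matrix genes of its group, 1351 TPM, against 1843 to 2427 TPM in the other 3 bleomycin libraries and 433 to 521 TPM in controls. Its sum of the transitional epithelial genes, 715 TPM, was likewise below the 925 to 1381 TPM of the other bleomycin libraries and above the 471 to 567 TPM of controls. The part of these differences in the members' result was not tested.

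Ad-GFP lungs were set against the same control lungs, so these values share their controls with those above. The median log2 fold change of the members was -0.43, against 0.03 for all genes, and 8 of 10 were negative. Of all genes 13.7% passed and of the 10 members 0 did. An unadjusted p under 0.05 was found for 5125 of 17003 genes and for 1 member. That was Etv5, at 44.7 ± 22.1 TPM in Ad-GFP lungs and 74.7 ± 19.8 TPM in control lungs (SD, n = 4 each), a log2 fold change of -0.81 (interval -1.63 to -0.00, limma adjusted p = 0.166). Sftpa1 was at -0.88, Lamp3 at -0.80 and Slc34a2 at -0.72, while Sftpd was at 0.24 and Napsa at 0.05, Napsa turning to -0.09 after quantile normalization. Here too 0 of 10 members were lower without overlap, against 4.49% of all genes. With array weights Etv5 passed (-1.03, limma adjusted p = 0.0378). Over such settings the count of all genes passing ran from 963 to 5013, against 2326 in the main fit.

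Ad-ATP12A lungs against control lungs gave the lowest values: the members' median was -0.81, against 0.00 for all genes, and 9 of 10 were negative. Of all genes 22.8% passed and of the members 0 did. An unadjusted p under 0.05 was found for 6324 of 17003 genes and for 4 members. These were Etv5 (log2 fold change -0.99, limma adjusted p = 0.0721), Sftpb (-0.73, 0.0834), Slc34a2 (-1.001, 0.102) and Lamp3 (-1.19, 0.108). Lamp3 averaged 143 ± 83.9 TPM in Ad-ATP12A lungs and 293 ± 93.2 TPM in control lungs, and Sftpb averaged 2180 ± 719 TPM in Ad-ATP12A lungs and 3598 ± 1072 TPM in control lungs (SD, n = 4 each). Sftpd, at 0.01, and Napsa, at -0.10, were again nearest to 0, and Sftpd turned to -0.26 after quantile normalization and -0.01 after median-ratio scaling. No member was lower without overlap, against 10.8% of all genes.

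The calls of this comparison also moved with the libraries and the model. Without control b2r2, the lowest control for 9 members, Sftpb (limma adjusted p = 0.0479) and Etv5 (0.0403) passed, and without bleomycin b2r1 Etv5 passed (0.0488). Fitting the 8 libraries alone passed 5 members, array weights 4 and a term for Xist 6, and Etv5 and Slc34a2 were in each of these sets. The count of all genes passing, 3874 in the main fit, moved too. It ran from 2660 to 5796 over these and other settings, and from 2225 to 4193 with 1 library left out. Xist was at 74.4 TPM or more in 3 of the 4 Ad-ATP12A libraries and in 1 of the 4 control libraries.

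**Figure D2:**
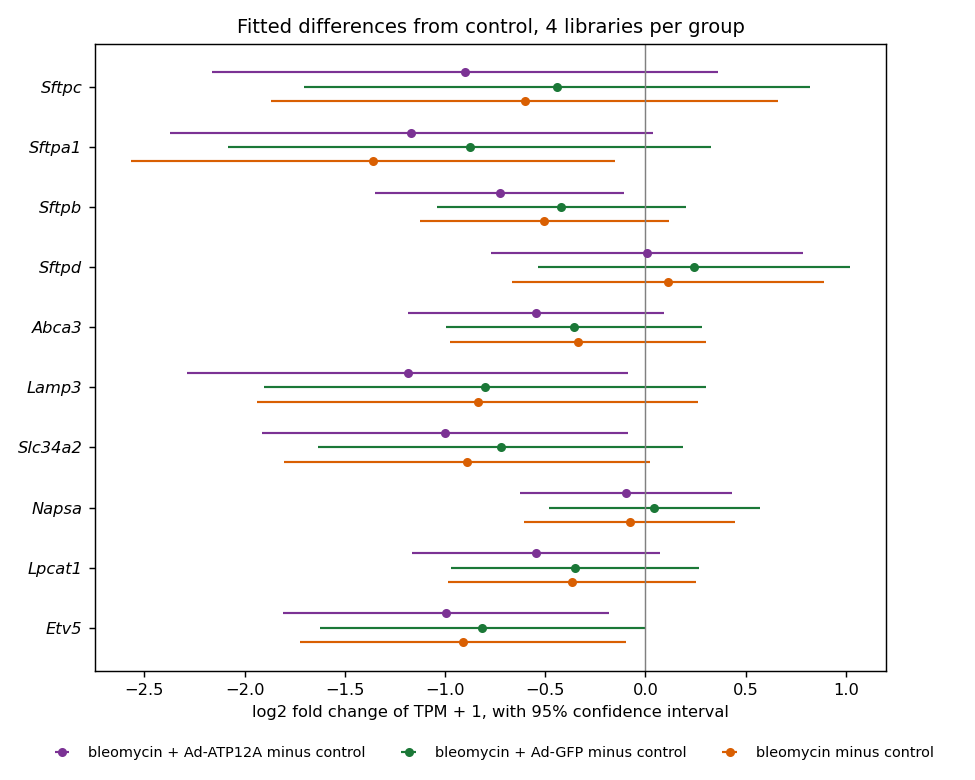
The horizontal axis is the fitted log2 fold change of TPM + 1 for each of the 10 genes (rows); purple is bleomycin with Ad-ATP12A minus control, green bleomycin with Ad-GFP minus control, orange bleomycin minus control, and bars are 95% confidence intervals. The 3 comparisons share the control libraries; Sftpa1, Lamp3, Slc34a2 and Etv5 lie farthest to the left, and Sftpd and Napsa sit near 0 in all 3.

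The vector itself was examined by setting Ad-GFP lungs against bleomycin lungs, where 0.0118% of all genes and 0 of 10 members passed, none with an unadjusted p under 0.05. The members' log2 fold changes lay between -0.02 for Abca3 and 0.48 for Sftpa1, and every limma adjusted p was 1.00. The intervals were wide: Sftpa1's ran from -0.72 to 1.69 and Napsa's, the narrowest, from -0.40 to 0.65. Within batch 1, 8 of 10 members were higher in the Ad-GFP lungs without overlap, against 13.1% of all genes, with a median difference of 0.66. Within batch 2 all 10 averaged lower in the Ad-GFP lungs, with a median of -0.40 and 0 without overlap, against 14.4% of all genes. The difference between the batches did not pass for any member, with 0 at an unadjusted p under 0.05 and a limma adjusted p of 0.998 for each; 0.0% of all genes passed there.

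Ad-ATP12A lungs were set against Ad-GFP lungs to ask what the ATP12A vector added. All 10 members averaged lower with Ad-ATP12A, by log2 fold changes of -0.14 for Napsa to -0.46 for Sftpc and a median of -0.26, against -0.01 for all genes. Of all genes 0.00588% passed, and of the members 0 did, none with an unadjusted p under 0.05 and each with a limma adjusted p of 0.999. Sftpc averaged 13732 ± 10385 TPM in Ad-ATP12A lungs and 18075 ± 10611 TPM in Ad-GFP lungs (SD, n = 4 each), so its spread within a group was larger than the difference of the means. The interval for Sftpc ran from -1.72 to 0.80. In batch 1 the members' median difference was 0.10, and in batch 2 it was -0.56, all 10 negative but 0 without overlap, against 25.5% of all genes. The batch difference passed for 0 members, with limma adjusted p between 0.774 and 0.939 and none at an unadjusted p under 0.05.

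The members also differed between the batches, in opposite directions in different groups. In bleomycin lungs against control lungs of batch 1, all 10 members were lower without overlap, against 36.0% of all genes, with differences of log2(TPM + 1) between -2.34 and -0.47 and a median of -1.0003. In batch 2, 4 of 10 members were negative and the median was 0.09; 0 were lower without overlap, against 16.7% of all genes, and 1 was higher without overlap, against 34.1%. That 1 was Sftpd, at 1511 and 836 TPM in bleomycin lungs and 806 and 557 TPM in control lungs of batch 2. With 2 libraries on each side these counts have no test of their own. The test of the batch difference passed for 0 of 10 members and for 0.0647% of all genes. That test gave an unadjusted p under 0.05 for 6 members and for 3230 of 17003 genes. Its largest differences were those of Sftpa1, 1.96 (interval -0.19 to 4.12, limma adjusted p = 0.303), Lamp3, 1.95 (interval 0.25 to 3.64, 0.211), and Slc34a2, 1.85 (interval 0.32 to 3.38, 0.190). All 10 batch differences were positive, which means that the bleomycin effect was less negative in batch 2 or had turned positive there. The smallest was that of Sftpc, 0.11, which turned to -0.67 with a term for Xist.

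The vector groups split in other ways. Against control, 6 of 10 members were lower without overlap in the batch 1 Ad-GFP lungs and 0 in batch 2, against 31.7% and 18.1% of all genes. The batch difference there passed for 0 members and for 2.36% of all genes, with 0 members and 3742 of 17003 genes at an unadjusted p under 0.05. In the Ad-ATP12A lungs 7 of 10 were lower than control without overlap in batch 1 and 8 of 10 in batch 2, against 30.9% and 32.9% of all genes. The batch difference passed for 0 members and for 2.80% of all genes. An unadjusted p under 0.05 was found for 4551 of 17003 genes. Among the members Sftpc alone had one, with a difference of -2.36 (interval -4.50 to -0.23, limma adjusted p = 0.152).

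Within the Ad-ATP12A group, all 10 members were lower in batch 2 than in batch 1 without overlap, against 28.7% of all genes, by -0.35 to -1.87 with a median of -0.80. Sftpc was at 3965 and 7987 TPM in batch 2, against 15371 and 27605 TPM in batch 1, and Lamp3 at 76.0 and 66.0 TPM in batch 2, against 198 and 231 TPM in batch 1. The same batch 2 libraries had 29.0 and 25.7 TPM of Atp12a, against 5.13 and 2.96 TPM in batch 1, and sums of the fibroblast matrix genes of 4059 and 2636 TPM, against 1080 and 1204 TPM. Xist differed as well, at 0.07 and 74.4 TPM in these batch 2 libraries and 157 and 130 TPM in batch 1. The part of any of these in the members' values was not tested, and with 2 libraries in each batch it cannot be told apart from batch. In bleomycin lungs the order was the opposite, with 7 of 10 members higher in batch 2 without overlap, against 43.5% of all genes. In control lungs 6 members were lower in batch 2 without overlap, against 11.7% of all genes, and 1, Sftpc, was higher, against 25.8%. In Ad-GFP lungs 0 members were separated by batch, against 13.9% of all genes that were lower. Over all groups batch 2 against batch 1 passed for 0 of 10 members and for 18.5% of all genes. No member had an unadjusted p under 0.05 there, while 5886 of 17003 genes did.

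**Figure D3:**
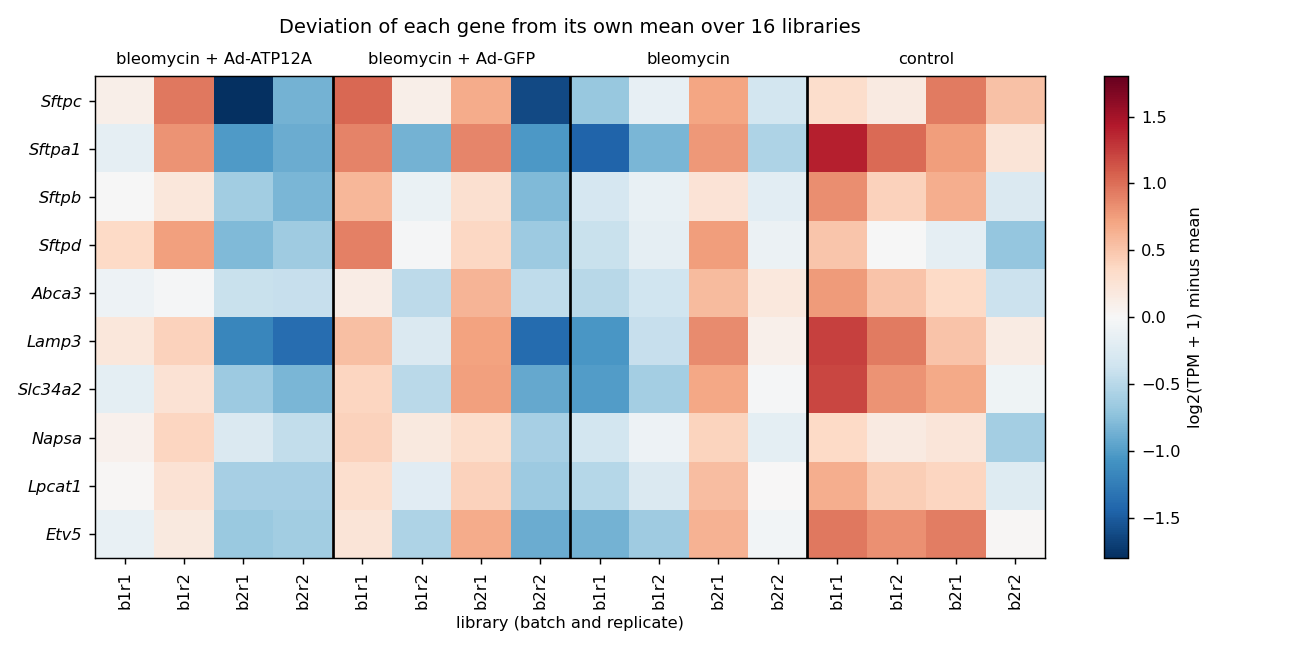
Rows are the 10 genes and columns the 16 libraries in 4 groups; the color is log2(TPM + 1) minus the gene's mean over the 16 libraries, red above and blue below. Most columns are of 1 color, as in bleomycin b2r1 and control b1r1 (red) and in Ad-GFP b2r2 and both batch 2 Ad-ATP12A libraries (blue).

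The members moved together between libraries, also within a group. Averaged over the members, the deviation from each gene's mean ran from -0.80 to 0.42 on the log2 scale in Ad-ATP12A lungs, from -0.90 to 0.57 in Ad-GFP lungs, from -0.71 to 0.62 in bleomycin lungs, and from -0.13 to 0.82 in control lungs. The lowest control was thus near the middle of each group given bleomycin. In the Ad-GFP group b2r2 was the lowest library for 9 members, while b1r1 and b2r1 were the highest for 5 each. Those 2 high Ad-GFP libraries had sums of the fibroblast matrix genes of 894 TPM in b1r1 and 1320 TPM in b2r1, against 2286 TPM in b1r2 and 2975 TPM in b2r2. The bleomycin group did not follow that order throughout, since b2r2, second highest for the members on average (-0.11), had its highest matrix sum, 2427 TPM. The part of these genes in the members' levels was not tested.

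Epcam, a membrane protein of all lung epithelium, gave a view of the members relative to 1 epithelial gene. It averaged 64.3 ± 21.6 TPM in Ad-ATP12A lungs, 64.3 ± 9.99 TPM in Ad-GFP lungs, 69.0 ± 8.35 TPM in bleomycin lungs and 60.1 ± 6.15 TPM in control lungs (SD, n = 4 each), with a log2 fold change of 0.20 in bleomycin against control lungs (limma adjusted p = 0.391, and 0.0447 to 0.725 over the settings tried). In Ad-ATP12A lungs it was at 91.5 and 71.8 TPM in batch 1 and 46.0 and 48.1 TPM in batch 2. Of the 7 genes of all lung epithelium, 6 had a positive log2 fold change in bleomycin against control lungs. A ratio to Epcam thus moves with Epcam as well as with the member. Per unit of Epcam, Etv5 was at 0.588 ± 0.107 in Ad-ATP12A lungs, 0.715 ± 0.418 in Ad-GFP lungs, 0.625 ± 0.363 in bleomycin lungs and 1.24 ± 0.281 in control lungs. Slc34a2 was at 5.57 ± 1.28 in Ad-ATP12A lungs, 7.21 ± 4.18 in Ad-GFP lungs, 6.09 ± 3.76 in bleomycin lungs and 11.7 ± 3.61 in control lungs. Sftpd was at 14.2 ± 4.47 in Ad-ATP12A lungs, 16.6 ± 5.93 in Ad-GFP lungs, 14.3 ± 6.84 in bleomycin lungs and 14.6 ± 4.41 in control lungs. Relative to Epcam, too, Etv5 and Slc34a2 averaged lower in the groups given bleomycin, while the Sftpd means of all 4 groups differed by less than their SDs; this view was added after the data were seen and carries no test.

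Ratios of 2 members within a library are free of its total. Sftpd over Sftpa1, SP-D over SP-A, was 0.703, 0.462, 0.563 and 0.580 in Ad-ATP12A lungs, 0.490, 0.868, 0.342 and 0.628 in Ad-GFP lungs, and 0.999, 0.773, 0.474 and 0.662 in bleomycin lungs, against 0.260, 0.238, 0.258 and 0.256 in control lungs. All 12 bleomycin-exposed libraries lay above the 4 controls, in both batches. The mean log2 ratio of Sftpa1 to Sftpd differed from control by -1.17 in Ad-ATP12A lungs, -1.12 in Ad-GFP lungs and -1.47 in bleomycin lungs; in the bleomycin lungs it was -1.82 within batch 1 and -1.13 within batch 2. Sftpd over Sftpb was 0.305 to 0.502 in Ad-ATP12A lungs, 0.367 to 0.428 in Ad-GFP lungs and 0.322 to 0.490 in bleomycin lungs, against 0.197 to 0.272 in control lungs. Napsa over Etv5 was 8.07 to 9.42 in Ad-ATP12A lungs, 5.47 to 11.8 in Ad-GFP lungs and 6.02 to 10.5 in bleomycin lungs, against 4.27 to 4.64 in control lungs.

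These 3 ratios were picked after their values were seen, from 45 pairs of members. Of the 45, 15 did not overlap between Ad-ATP12A and control lungs, 13 between Ad-GFP and control lungs, and 17 between bleomycin and control lungs. Among all pairs of genes with a mean of at least 20 TPM the share without overlap was 33.1% for Ad-ATP12A, 20.6% for Ad-GFP and 31.6% for bleomycin against control lungs, so the members' counts were close to the background. In an exact two-sided permutation test the pairs without overlap were those with an unadjusted p under 0.05, and 0 of 45 passed after Benjamini-Hochberg adjustment over the pairs in any of the 3 comparisons. The separation of a ratio is not particular to these genes.

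**Figure D4:**
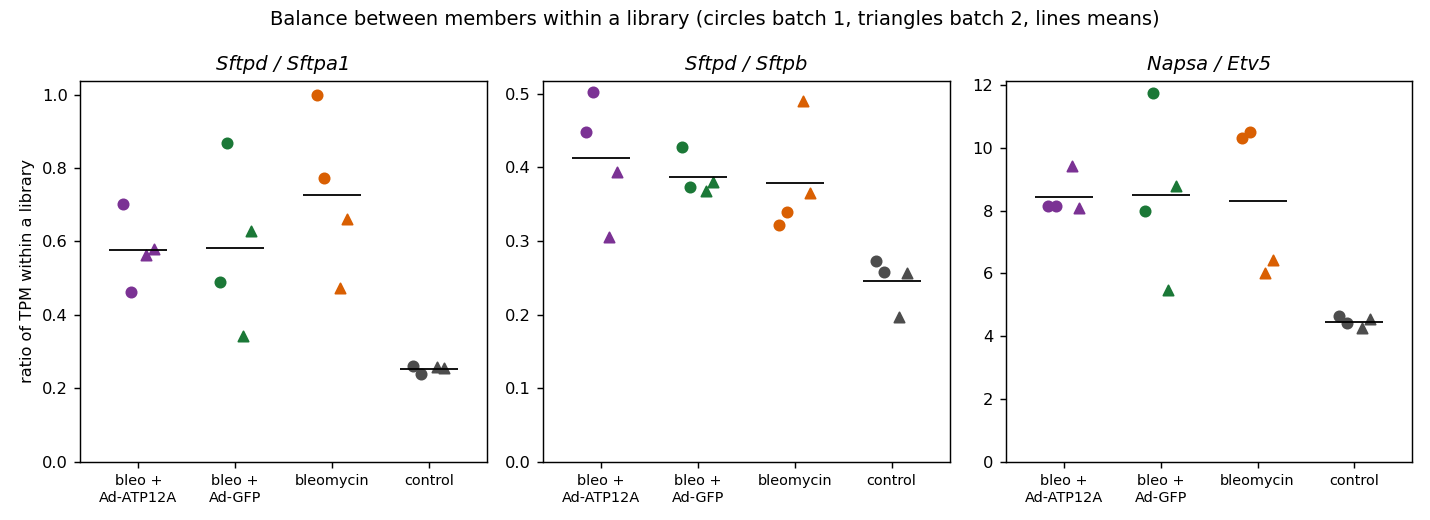
Each panel plots the ratio of TPM of 2 genes within a library (vertical axis, linear from 0) for the 4 groups; circles are batch 1, triangles batch 2, and lines are means of 4 libraries. In each of the 3 panels all bleomycin-exposed libraries lie above the 4 controls, whose Sftpd to Sftpa1 ratios sit between 0.238 and 0.260.

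Genes around the members were taken from lists. In bleomycin against control lungs 13.2% of all genes passed higher and 5.61% lower, which is 70.2% higher among those that passed, and 51.3% and 52.9% after quantile normalization and median-ratio scaling. For Ad-GFP against control lungs the shares of all genes were 9.16% higher and 4.52% lower, and for Ad-ATP12A against control lungs 13.3% higher and 9.49% lower. Among those that passed, 67.0% were higher in Ad-GFP lungs, and 49.2% and 52.7% after quantile normalization and median-ratio scaling; in Ad-ATP12A lungs 58.4% were higher, and 46.4% and 51.9% after those scalings. Of 16 further type 2 markers, 1 rose and 1 fell in bleomycin lungs, with a median log2 fold change of -0.54. The count that fell was 4 without bleomycin b2r1, 2 without control b2r2 and 7 with array weights. All genes passing moved as well, from 3201 in the main fit to between 1484 and 3701 with 1 library left out. Over the other settings they ran from 1468 to 7613, so the counts of these markers cannot be read apart from that shift. Rnase4, a secreted ribonuclease, fell by 0.82 on the log2 scale (309 ± 54.2 TPM in bleomycin lungs, 539 ± 25.9 TPM in control lungs, limma adjusted p = 0.00258). Cd74, the class II invariant chain that leukocytes express too, rose by 0.74 (2468 ± 440 TPM in bleomycin lungs, 1467 ± 84.5 TPM in control lungs, adjusted p = 0.0216). Lyz1, a lysozyme of type 2 cells, was at 115 ± 127 TPM in bleomycin lungs and 495 ± 272 TPM in control lungs and did not pass (-2.54, adjusted p = 0.0639), but it did without bleomycin b2r1 (-3.31, 0.0163) or control b2r2 (-3.07, 0.0398). In Ad-GFP lungs 0 of the 16 rose and 1 fell, and in Ad-ATP12A lungs 1 rose and 2 fell. The call of Cd74 was lost without bleomycin b2r2 (adjusted p = 0.0740) or control b1r2 (0.0549) and after quantile normalization (0.111). The sum of the leukocyte genes Ptprc, Laptm5, Coro1a, Cd53 and Cd52 was 764 to 1269.6 TPM in bleomycin lungs and 511 to 591 TPM in control lungs, and its part in Cd74 was not tested.

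Genes of surfactant lipid supply had a median log2 fold change of -0.07 in bleomycin lungs. Of these 20 genes 1 rose and 3 fell, against 13.2% higher and 5.61% lower of all genes. Stard10, a phospholipid transfer protein, fell by 0.46 (50.4 ± 7.92 TPM in bleomycin lungs, 69.2 ± 2.38 TPM in control lungs, limma adjusted p = 0.0137). Chpt1, which joins choline to diacylglycerol, fell by 0.67 (64.3 ± 17.6 TPM in bleomycin lungs, 100.1 ± 3.21 TPM in control lungs, 0.0144), a call lost without bleomycin b1r1 (0.0576). Gpam, which starts glycerolipid synthesis, fell by 0.81 (0.0441), and Lpcat3, an acyltransferase related to Lpcat1 in function, rose by 0.53 (0.0315). Gpam's call was lost on leaving out any of 10 libraries, with adjusted p up to 0.139 (without bleomycin b1r2), and that of Lpcat3 on leaving out any of 5, up to 0.0894 (without bleomycin b2r2). Fewer passed in Ad-GFP lungs, 0 higher and 1 lower, and in Ad-ATP12A lungs 1 rose and 4 fell.

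Among 15 regulators of lung epithelium, 2 rose and 3 fell in bleomycin lungs, with a median of -0.26. Both that rose lie, with Etv5, downstream of growth factor signalling: the ETS factor Etv4 rose by 1.88 (5.60 ± 2.51 TPM in bleomycin lungs, 0.828 ± 0.999 TPM in control lungs, limma adjusted p = 0.0244) and the feedback inhibitor Spry4 by 0.68 (19.0 ± 3.48 TPM in bleomycin lungs, 11.5 ± 2.23 TPM in control lungs, 0.0142). Etv4 thus passed higher, while Etv5, of the same family, averaged lower without passing. Those that fell were the related inhibitor Spry2 by 0.55 (20.2 ± 0.816 TPM in bleomycin lungs, 30.1 ± 3.27 TPM in control lungs, 0.0121), the growth factor receptor Fgfr2 by 1.11 (59.1 ± 25.0 TPM in bleomycin lungs, 122 ± 17.2 TPM in control lungs, 0.0352), and Foxa1 by 0.74 (14.8 ± 1.59 TPM in bleomycin lungs, 25.4 ± 1.45 TPM in control lungs, 0.0352). Nkx2-1, whose motif is marked in the Sftpb and Sftpa1 promoters, did not pass (-0.27, 0.513). The call of Etv4 was lost without bleomycin b1r1, b1r2 or b2r2 or control b1r2 or b2r1 (adjusted p 0.0559 to 0.0826) and that of Fgfr2 without bleomycin b1r1, b1r2 or b2r2 or control b1r1, b1r2 or b2r1 (0.0621 to 0.1202). Foxa1 lost its call without bleomycin b1r1, b1r2 or b2r2 or any 1 control (0.0578 to 0.109), and Spry4 without bleomycin b2r2 (0.0502). In Ad-GFP lungs 0 of the 15 passed, and in Ad-ATP12A lungs 2 rose and 3 fell.

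On surfactant turnover, 6 of 11 genes rose and 1 fell in bleomycin lungs, with a median of 0.56, and 3 rose on leaving out bleomycin b1r1, b1r2 or b2r2 or control b2r1 or b2r2. Csf2ra, a chain of the GM-CSF receptor through which macrophages clear surfactant, rose by 1.44 (124 ± 28.9 TPM in bleomycin lungs, 44.2 ± 4.53 TPM in control lungs, limma adjusted p = 0.00059). Npc2, a sterol carrier, rose by 0.56 (545 ± 32.5 TPM in bleomycin lungs, 375 ± 65.9 TPM in control lungs, 0.00607), and Ctsh, a protease that also processes the SP-B precursor, rose by 1.16 (712 ± 132 TPM in bleomycin lungs, 317 ± 49.5 TPM in control lungs, 0.0117). Adgrf5, a receptor that restrains surfactant pools and is also made by endothelium, fell by 1.21 (295 ± 152 TPM in bleomycin lungs, 625 ± 125 TPM in control lungs, 0.0165), a call lost without bleomycin b1r1 or b1r2 or control b1r1 or b1r2 (0.0535 to 0.0589). In both vector groups 4 rose and 1 fell. Csf2ra, Npc2 and Ctsh are expressed by macrophages as well, and the leukocyte sum moved with them as given above; its part was not tested.

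Other alveolar and lung cells give the setting of these values. Of 11 alveolar type 1 markers 0 rose and 1 fell in bleomycin lungs, Hopx (-0.71, limma adjusted p = 0.00885); 2 fell without bleomycin b2r1 or Ad-GFP b2r1, 4 without control b2r2, 6 with array weights and 0 without the 3 libraries low in Scgb1a1. In Ad-ATP12A lungs 6 of the 11 fell, and in Ad-GFP lungs 1 did. Of 10 transitional epithelial genes 9 rose, with a median of 1.40, among them the cornified envelope gene Sprr1a (2.90, 0.000126), and 9 rose in each vector group as well. Of the other lists, counted as higher and lower, 1 and 0 of 7 genes of all lung epithelium passed, 0 and 1 of 6 for club cells, 0 and 1 of 5 for ciliated cells, 2 and 3 of 10 for alveolar macrophages, 3 and 0 of 5 for leukocytes, 4 and 0 of 6 for fibroblast matrix, and 0 and 1 of 6 for endothelium, of which 6 fell in Ad-ATP12A lungs and, with array weights, 6 in bleomycin lungs. Without the 3 libraries low in Scgb1a1 the counts became 0 and 0 for lipid supply, 1 and 0 for regulators, 2 and 0 for turnover, 0 and 1 for the further type 2 markers, and 9 and 0 for the transitional genes. As given above, all genes passing ran from 1484 to 3701 with 1 library left out and from 1468 to 7613 over the other settings. No count of a list under a changed setting can be read apart from that shift.

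**Figure D5:**
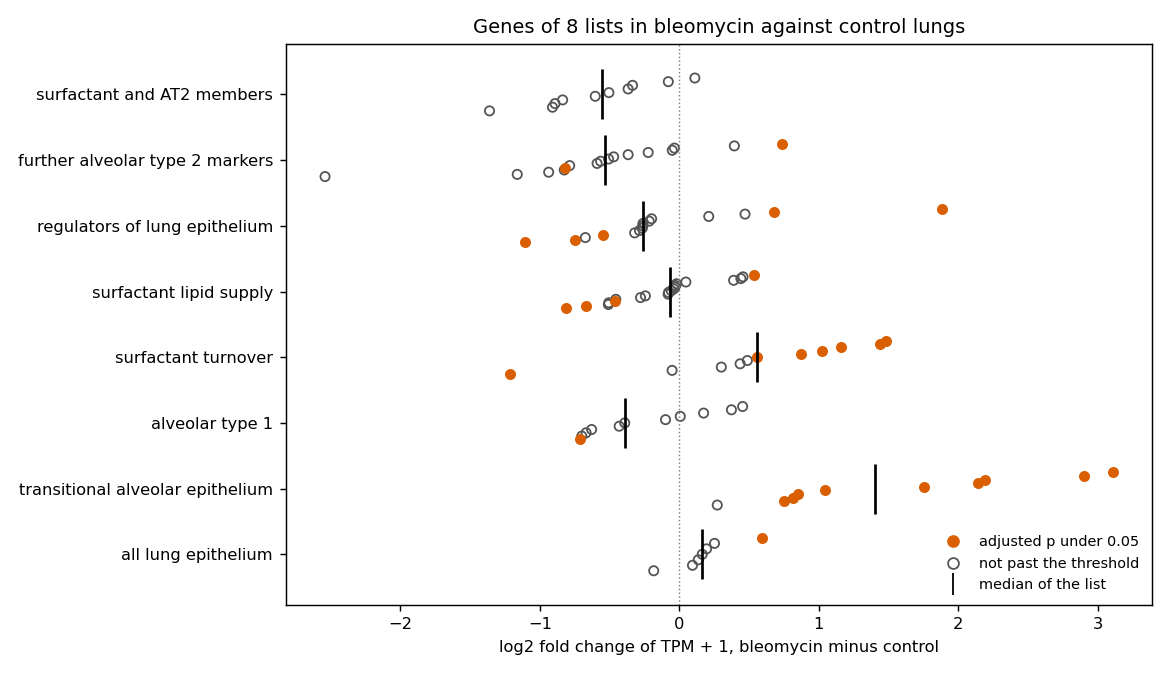
Each point is a gene of 1 of 8 lists (rows), placed by its log2 fold change of TPM + 1 in bleomycin minus control lungs (horizontal axis); filled points passed an adjusted p of 0.05, open points did not, and bars are list medians. None of the 10 surfactant and alveolar type 2 genes in the top row is filled, while 9 of 10 transitional genes are, with a median of 1.40.

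The genes whose levels were most like those of the members were sought by Pearson's r over the 16 libraries with the mean of the members, each centred on its own mean. Of 12225 genes with a mean of at least 5 TPM, 11237 were ranked, leaving out the members, genes that are not protein-coding, predicted models, pseudogenes and identifiers with no symbol. The libraries share groups and batches, so r is a description. The 10 highest were Hc (0.977), Lgi3 (0.975), Sgpp2 (0.972), Abcd3 (0.968), Mlc1 (0.967), Tmem163 (0.963), Ppp1r14c (0.959), Egfl6 (0.956), Elovl1 (0.954) and Rab27b (0.953). Hc, Lgi3, Mlc1, Ppp1r14c and Egfl6 were on the list of further type 2 markers, and Elovl1, a fatty acid elongase, on that of lipid supply. These lists did not follow the members throughout. Among their ranked genes r ran from -0.18 (Cd74) to 0.977 (Hc) in the first list, and from -0.52 (Lpcat3) to 0.954 (Elovl1) in the second. Hc, complement C5, ranged from 32.8 to 188 TPM in Ad-ATP12A lungs, 23.1 to 247 TPM in Ad-GFP lungs, 44.1 to 256 TPM in bleomycin lungs, and 128 to 348 TPM in control lungs, overlapping between all groups as the members do. The 5 lowest were Slc2a1 (-0.953), F3 (-0.942), Dok3 (-0.914), Nfatc4 (-0.913) and Npl (-0.912). Slc2a1, a glucose transporter, averaged 25.2 ± 7.84 TPM in Ad-ATP12A lungs, 21.3 ± 9.95 TPM in Ad-GFP lungs, 20.8 ± 5.99 TPM in bleomycin lungs and 13.1 ± 1.32 TPM in control lungs. Among the members themselves r with their mean was highest for Lpcat1 (0.991) and Lamp3 (0.976), and lowest for Sftpd (0.812), Napsa (0.853) and Sftpc (0.864). Each member is part of that mean, which raises its r, so these values are not comparable with those of the other genes.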

How the data were processed

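RNA was extracted from mouse lung with a column kit, per the labels' protocols. The deposited table holds log2 values, which the authors took of TPM with 1 added: turned back, columns sum to between 999999.12 and 1000000.82 TPM in steps of 0.01. Alignment with STAR and quantification with RSEM on GRCm39 (mm39) are listed in the submitters' processing notes; versions and strand setting are not given in the sources used here. Symbols came from GENCODE M21, an annotation of GRCm38, which matched 52093 of 53647 identifiers. Promoter sequences are RefSeq's.

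Genes reaching 1 TPM in 4 or more libraries (17003) were fitted with limma 3.58.1 in R 4.3.3 on log2(TPM + 1), a pseudocount of 1, so fold changes of low genes are understated. The fit used a trended prior variance, 4 group means, batch as a term, and Benjamini-Hochberg adjustment at 0.05. Batch differences came from a fit of 8 group-by-batch means. The fits were tested on simulated data.

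The members and all lists were chosen with earlier results of these data known. All members are named; of other lists up to 4 genes with the smallest p in bleomycin against control lungs, plus any needed to say which did not pass (Nkx2-1), of likeness the 10 highest and 5 lowest r. Hopx, Foxa1, Sprr1a and Epcam lie outside this rule and were chosen after their values were seen. Alternatives were another pseudocount and filters, quantile normalization, median-ratio scaling, array weights, 2 groups alone, a replicate block, the batch term dropped, and each library left out; a term for Xist and leaving out the libraries low in Scgb1a1 were tried too. Replicate numbers did not pair the libraries. Figures used Python 3.11.15 and matplotlib 3.10.9.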

Additional observations from a re-analysis of the deposited data

How the results depend on the processing

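No setting gave a call in the vector comparison, the ATP12A comparison, the batch comparison or the batch differences, where the count of members stayed 0. The 3 comparisons with control did not keep 0. Bleomycin against control passed 7 members with array weights and 1 with a term for Xist, and 0 to 3 with 1 library left out; Ad-GFP against control passed 1 with array weights; Ad-ATP12A against control passed 5 with the 2 groups alone, 4 with array weights and 6 with a term for Xist, and 0 to 2 with 1 library left out. A paired fit with the replicate block passed 0 members in every comparison, and 2636, 1830 and 3216 genes in bleomycin, Ad-GFP and Ad-ATP12A against control, where 3201, 2326 and 3874 passed without it; deviations of same-numbered libraries correlated between -0.158 and 0.212, with 1 of 12 over 0.1. The cause of these shifts was not tested. Over the other settings the genes passing ranged from 1468 to 7613 for bleomycin, 963 to 5013 for Ad-GFP and 2660 to 5796 for Ad-ATP12A against control, from 0 (without the 3 libraries low in Scgb1a1) to 5018 for batch 2 against batch 1, where 3141 passed, and for the batch differences from 1 to 504 for bleomycin, where 11 passed, 3 to 751 for Ad-GFP, where 401 passed, and 118 to 2211 for Ad-ATP12A against control, where 476 passed. With 1 library left out they ranged from 1484 to 3701, 870 to 2982 and 2225 to 4193 for bleomycin, Ad-GFP and Ad-ATP12A against control, from 1602 to 4943 for batch, and from 1 to 529, 3 to 1113 and 0 to 1401 for the batch differences of those 3 comparisons. The batch comparison and the batch differences were not run with the replicate block or without the batch term. Quantile normalization moved the median of all genes from 0.09 to -0.01 for batch 2 against batch 1, and from 0.09 to -0.03 for the batch difference of bleomycin against control.

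Signs turned for small, uncalled log2 fold changes. With array weights these were Sftpd in bleomycin (-0.17) and Ad-ATP12A (-0.0720) and Napsa in Ad-GFP (-0.0288) against control, Abca3 in Ad-GFP against bleomycin (0.11) and Slc34a2 between batches (0.0961). After quantile normalization they were Sftpd in bleomycin (-0.0928) and Ad-ATP12A (-0.26) and Napsa in Ad-GFP (-0.0861) against control, and Abca3 (-0.11) and Etv5 (-0.14) between batches. After median-ratio scaling they were Sftpd in Ad-ATP12A against control (-0.00895), Abca3 in Ad-GFP against bleomycin (0.00583), and Abca3 (-0.0961) and Etv5 (-0.11) between batches. With a term for Xist they were Sftpd in Ad-ATP12A against control (-0.41), Sftpa1 (0.0893) and Slc34a2 (0.10) between batches, and Sftpc in the batch difference of bleomycin against control (-0.67). Without the 3 libraries low in Scgb1a1 they were Napsa in bleomycin (0.0274) and Ad-ATP12A (0.0189) against control, Sftpc (-0.0937), Sftpb (-0.0161), Sftpd (-0.0180) and Lpcat1 (-0.0138) in Ad-GFP against bleomycin, Sftpa1 in Ad-ATP12A against Ad-GFP (0.00982), and Abca3 (-0.000389) and Etv5 (-0.0128) between batches.

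With each library left out in turn, signs also turned as follows. Against control, Sftpd ranged from -0.24 to 0.35 and Napsa from -0.30 to 0.0759 in bleomycin, Sftpc from -0.75 to 0.0849 and Napsa from -0.14 to 0.24 in Ad-GFP, and Sftpd from -0.20 to 0.18 and Napsa from -0.28 to 0.0233 in Ad-ATP12A. In Ad-GFP against bleomycin, Sftpc ranged from -0.15 to 0.69, Sftpb from -0.0919 to 0.30, Sftpd from -0.11 to 0.48, Abca3 from -0.26 to 0.19, Lamp3 from -0.37 to 0.46, Slc34a2 from -0.14 to 0.53, Napsa from -0.0303 to 0.34, Lpcat1 from -0.18 to 0.27 and Etv5 from -0.20 to 0.40. In Ad-ATP12A against Ad-GFP, Sftpa1 ranged from -0.66 to 0.0782, Abca3 from -0.34 to 0.0478, Slc34a2 from -0.57 to 0.0334, Lpcat1 from -0.39 to 0.00423 and Etv5 from -0.46 to 0.11. Between batches, Abca3 ranged from -0.11 to 0.14, Slc34a2 from -0.27 to 0.0509 and Etv5 from -0.15 to 0.14, and the batch difference of Sftpc in bleomycin against control ranged from -0.41 to 0.63. TPM keeps no depth, so counting error could not be set beside any of these values.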
